A study of Mus musculus with 3 samples.

Results

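Notch receptors, Notch target genes and Myc were followed as a set of 10 genes in tumours of the mouse spleen: the receptors Notch1, Notch2 and Notch3, the target genes Hes1, Hey1, Dtx1, Nrarp, Il2ra and Ptcra, and Myc. They were chosen by name, and every probe whose RefSeq transcript belongs to them was taken, which gave 11 of the 56605 non-control probes and 10 of the 22911 genes with a named probe. Each gene had 1 probe except Myc, which had 2. Total RNA of 3 tumours, each from a male mouse aged 10 weeks, had been labelled with Cy3 and hybridised to 1 array per tumour. The control tumour came from a p53+/− mouse and is called the p53 tumour. The other tumours came from LSD1 × p53+/− mice numbered 2 and 3, called tumour #2 and tumour #3 and together the LSD1 tumours, so all 3 animals were p53+/−. The labels do not say whether the LSD1 element is a transgene, a deletion or another allele, name no promoter or Cre and state no pooling of animals, and whether the number stands for a mouse or a line is not settled by them. They call the tissue a splenic tumour and the starting material isolated splenic cells, taken without treatment.

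In Notch signalling a ligand on a neighbouring cell triggers cleavage of the receptor, whose intracellular part enters the nucleus, binds RBPJ together with a Mastermind coactivator and switches on target genes. In lymphoid tissue NOTCH1 directs early T cell development in the thymus and is often activated in T cell leukaemia, where MYC is among its direct targets. NOTCH2 is needed for marginal zone B cells and for a group of dendritic cells of the spleen. MYC also answers to many other signals, and drives genes of ribosome formation, nucleotide synthesis and the cell cycle.

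Promoter sequence in RefSeq's table (assembly GRCm38.p6) matched 7 of the 10 genes by symbol. Hes1, Hey1 and Myc had no entry. The window ran from 250 bases before to 50 bases after the transcript start, and both strands were searched for 3 motifs. The first, GTGGGAA, is bound by RBPJ. Its core, TGGGAA, lies within it and was also counted alone. The palindrome CACGTG is an E-box of the kind bound by MYC. The 250 bases upstream are printed for Dtx1 and Notch2, which were lower in both LSD1 tumours, for Nrarp, which holds the E-box, and for Ptcra, which holds the RBPJ core. They are written 5′ to 3′ on the gene's own strand, with motif matches in capitals. Dtx1 lies on the minus strand at chr5:120711670-120711919, Notch2 on the plus strand at chr3:98013288-98013537, Nrarp on the plus strand at chr2:25180508-25180757 and Ptcra on the minus strand at chr17:46763713-46763962.
Dtx1: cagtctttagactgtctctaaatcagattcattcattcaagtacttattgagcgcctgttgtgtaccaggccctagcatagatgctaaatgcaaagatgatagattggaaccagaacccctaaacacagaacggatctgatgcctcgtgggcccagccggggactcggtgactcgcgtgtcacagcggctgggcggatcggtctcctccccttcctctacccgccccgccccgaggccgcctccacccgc
Notch2: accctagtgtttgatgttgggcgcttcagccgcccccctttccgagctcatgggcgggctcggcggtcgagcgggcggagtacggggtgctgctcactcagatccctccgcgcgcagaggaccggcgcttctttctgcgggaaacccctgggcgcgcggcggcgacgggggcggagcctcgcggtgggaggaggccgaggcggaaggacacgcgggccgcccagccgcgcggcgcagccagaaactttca
Nrarp: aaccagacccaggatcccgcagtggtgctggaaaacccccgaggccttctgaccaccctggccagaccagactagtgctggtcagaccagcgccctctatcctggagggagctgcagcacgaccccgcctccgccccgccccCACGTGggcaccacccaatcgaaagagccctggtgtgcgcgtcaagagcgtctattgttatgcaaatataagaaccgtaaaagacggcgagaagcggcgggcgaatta
Ptcra: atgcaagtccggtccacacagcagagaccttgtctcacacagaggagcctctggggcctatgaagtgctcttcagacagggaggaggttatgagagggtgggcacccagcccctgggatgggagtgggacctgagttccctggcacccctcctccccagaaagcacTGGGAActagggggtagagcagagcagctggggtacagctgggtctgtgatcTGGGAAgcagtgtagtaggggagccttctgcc
GTGGGAA stood in 0 of the 7 windows and in 6.39% of all 27025 promoters. Its core TGGGAA stood in 1 of 7, that of Ptcra, 84 and 32 bases upstream of the start, and in 25.5% of all promoters. CACGTG stood in 1 of 7, that of Nrarp, 108 bases upstream, and in 7.24% of all. The upstream stretch of Notch2 was rich in G and C, at 72.0% with 34 CpG pairs, while that of Dtx1 had 56.4% and 15, that of Nrarp 61.2% and 18 and that of Ptcra 60.4% and 1. The median over all promoters was 52.0% with 6 CpG pairs. A match describes the letters of the window and is no measurement of binding.

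Signals are given as multiples of the array's 75th percentile of the processed signal, and differences as log2 of the ratio of such multiples. A probe counts as above background on an array when the scanner software flagged more of its spots than not as well above background, and where the dimmer side was not, a fold is given as "at least", against the higher of the probe's own value and the lowest level above background on that array. Such a fold holds for this scaling and background. With normexp, a background correction tried as an alternative, several were smaller, those of Hey1, Il2ra, Jag2, Maml3, Mycl, Rgs5 and Siglec1 among them. Above background on at least 1 array were 32889 probes, and these were tested with limma, 1 array against 2. The test takes its spread from the LSD1 tumours and from all probes, and assumes that the lone p53 tumour varies as they do. On each array between 51.5% and 55.6% of the 59305 non-control spots were well above background and 0 were saturated, and repeated spots of 1 probe had a median SD between 0.039 and 0.042 log2. With 3 arrays, precision is limited by their number. The p53 tumour and tumour #3 were on slide 1, scan 1, and tumour #2 on slide 2, scan 2, so each tumour #3 value below is also the comparison within a slide.

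Across the set, the tested receptors and all tested target genes except Nrarp were lower in both LSD1 tumours than in the p53 tumour, and Myc was higher in both. Of the 11 probes, 10 were above background on at least 1 array and were tested, and the Ptcra probe was not above background on any. Lower by 2-fold or more in both LSD1 tumours were 4 of the 10 tested probes, those of Dtx1, Hes1, Hey1 and Notch2, against 7.31% of all tested probes. Higher by at least 2-fold in both were 2 of 10, both Myc probes, against 3.63% of all tested probes. Among all probes past that size, 33.2% were on the higher side, and 11.8% in the authors' value table. The set had been proposed with Dtx1, Hes1 and Myc already known to differ in these data, so these counts are a description. With limma 0% of all probes passed the threshold of 0.05 after adjustment. Before adjustment 4.53% (1491) were under it, among them Hes1, Dtx1 and 1 Myc probe. By direction, 3.31% of all probes were under it with a lower mean in the LSD1 tumours and 1.23% with a higher mean. In bulk tissue, fewer cells of a type and less RNA per cell cannot be told apart.

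**Figure D1:**
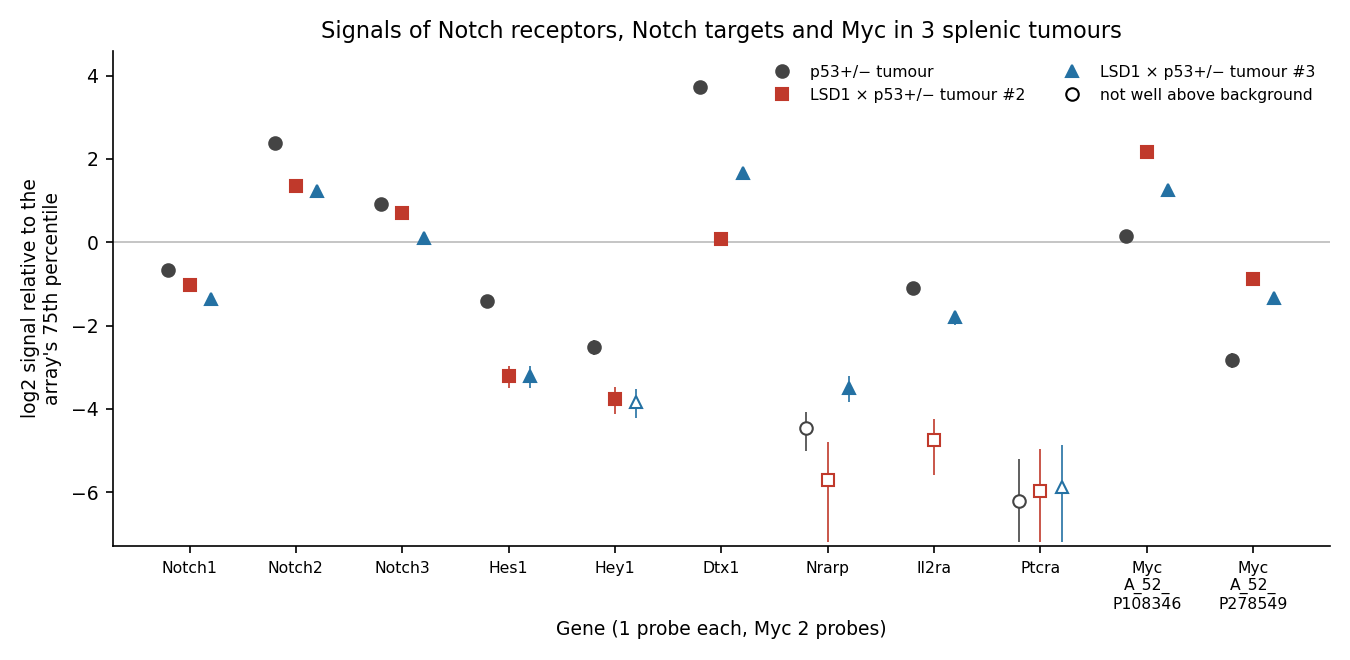
Signal of each of the 11 probes in each tumour, as log2 of the multiple of the array's 75th percentile (1 array per tumour, no replicates of the p53 tumour). Bars show the scanner software's own error of the signal, cut at the lower edge of the plot, and open symbols are not well above background. Dtx1, Hes1, Hey1 and Notch2 lie lower in both LSD1 tumours, and Myc lies higher on both probes.

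Of the receptors, Notch2 had the largest mean difference. Its signal was 5.24 in the p53 tumour, 2.56 in tumour #2 and 2.34 in tumour #3. Both LSD1 tumours lay below the p53 tumour, by 2.04-fold and 2.24-fold, and lay 0.13 log2 apart. The mean log2 difference was -1.10 (SE 0.50, 95% interval -2.59 to 0.39, limma, adjusted p = 0.892), and 10.8% of tested probes had a lower one. Notch2 stayed lower in both tumours with normexp, quantile normalization and the authors' value table, with mean differences of -1.12, -1.29 and -1.39. The other fits on all 3 arrays change only which probes are kept, so a probe's own difference cannot move in them.

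Notch1, the receptor of the T lineage, gave 0.635 in the p53 tumour, 0.493 in tumour #2 and 0.386 in tumour #3. It was 1.29-fold and 1.65-fold lower, within the sizes common among all probes, since 23.4% had a lower mean difference (-0.54 log2, SE 0.52, limma, adjusted p = 0.898). Notch3, a receptor of vessel wall cells that is also found in immature thymocytes, gave 1.88, 1.64 and 1.08 in the same order. It was 1.15-fold and 1.75-fold lower (mean -0.50 log2, SE 0.57, limma, adjusted p = 0.913). All 3 receptors thus lay lower in both LSD1 tumours, and lower in tumour #3 than in tumour #2. Notch4, the receptor of endothelial cells, stood outside the set of 10 and had 2 tested probes that disagreed. Its brighter probe was 2.54-fold and 2.33-fold lower, while the other was above background in tumour #2 alone and at least 3.83-fold higher there than in the p53 tumour.

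Dtx1, an E3 ubiquitin ligase of the Deltex family that is switched on by Notch, had the largest difference of the set. Its signal was 13.2 in the p53 tumour, 1.06 in tumour #2 and 3.18 in tumour #3. The p53 tumour was the highest by far, and the LSD1 tumours also lay apart, with tumour 3 at 3.00-fold the signal of tumour 2. Dtx1 was thus 12.5-fold and 4.17-fold lower than in the p53 tumour, a mean log2 difference of -2.85 (SE 0.90, 95% interval -5.54 to -0.16, unadjusted p = 0.0431, limma, adjusted p = 0.892). A share of 1.05% of tested probes had a lower mean difference, and 86.4% had a smaller gap between the LSD1 tumours. Over the 6 alternative fits on all 3 arrays the mean ran from -3.15 to -2.80, and the tumours taken singly gave -3.64 and -2.06.

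Hes1, a transcriptional repressor and the classic target of Notch, gave 0.373 in the p53 tumour and 0.108 in each LSD1 tumour. It was 3.45-fold lower in tumour #2 and 3.46-fold lower in tumour #3, and just 0.681% of tested probes had a smaller gap between those tumours. The mean log2 difference was -1.79 (SE 0.49, 95% interval -3.27 to -0.31, unadjusted p = 0.0298, limma, adjusted p = 0.892). The probe was above background on all 3 arrays but dim in the LSD1 tumours, where the software's error of its signal was 17.8% and 18.7%. With normexp, a background correction that adds an offset to every spot, the differences were -1.08 and -0.99, so Hes1 then missed 2-fold in tumour #3.

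Hey1, a repressor related to Hes1, gave 0.176 in the p53 tumour, 0.0731 in tumour #2 and 0.0705 in tumour #3, where it was not above background. It was 2.40-fold lower in tumour #2 and at least 2.49-fold lower in tumour #3. That bound rests on the probe's own value in tumour #3 (-1.32 log2). With normexp the tumour #3 difference was -0.56, so the bound was not reached. Both LSD1 values lay near the limit of detection, and the mean log2 difference of -1.29 (SE 0.49, limma, adjusted p = 0.892) moved to -0.59 with normexp.

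Il2ra, the alpha chain of the interleukin-2 receptor that marks early thymocytes as well as activated and regulatory T cells, separated the LSD1 tumours. Its signal was 0.470 in the p53 tumour and 0.287 in tumour #3, and in tumour #2 it was not above background at 0.0369. It was at least 6.80-fold lower in tumour #2 and 1.64-fold lower in tumour #3, which had at least 4.15-fold the signal of tumour #2. The difference between the genotypes (-2.19 log2, SE 1.48, limma, adjusted p = 0.892) was therefore carried by tumour #2, and without that tumour it was -0.71. With normexp the differences were -1.87 in tumour #2 and -0.48 in tumour #3, so the bound in tumour #2 was not reached.

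Nrarp, an ankyrin repeat protein that Notch switches on and that limits Notch signalling, was above background in tumour #3 alone and passed the filter only through it. Its signal was 0.0451 in the p53 tumour, 0.0191 in tumour #2 and 0.0889 in tumour #3. tumour #3 had at least 1.67-fold the signal of the p53 tumour and at least 1.29-fold that of tumour #2, and the other tumours have no order between them. Ptcra, the pre-T cell receptor alpha chain of immature thymocytes, gave 0.0135, 0.0159 and 0.0171, not above background on any array, so no fold can be given.

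Myc was higher in both LSD1 tumours on both of its probes. Probe A_52_P108346 gave 1.103 in the p53 tumour, 4.52 in tumour #2 and 2.39 in tumour #3, which is 4.10-fold and 2.16-fold higher. Probe A_52_P278549 gave 0.141, 0.544 and 0.398, which is 3.86-fold and 2.83-fold higher. The p53 tumour was lowest and tumour #2 highest on each. The mean log2 differences were 1.57 (SE 0.66, 95% interval -0.40 to 3.55, limma, adjusted p = 0.892) and 1.72 (SE 0.54, 95% interval 0.11 to 3.33, unadjusted p = 0.0418, limma, adjusted p = 0.892). Of all tested probes, 95.9% and 96.9% had a lower mean difference. The direction held in the authors' value table, with normexp and with quantile normalization. In each of these the first probe missed 2-fold in tumour #3 (0.75, 0.97 and 0.99 log2 in that order).

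**Figure D2:**
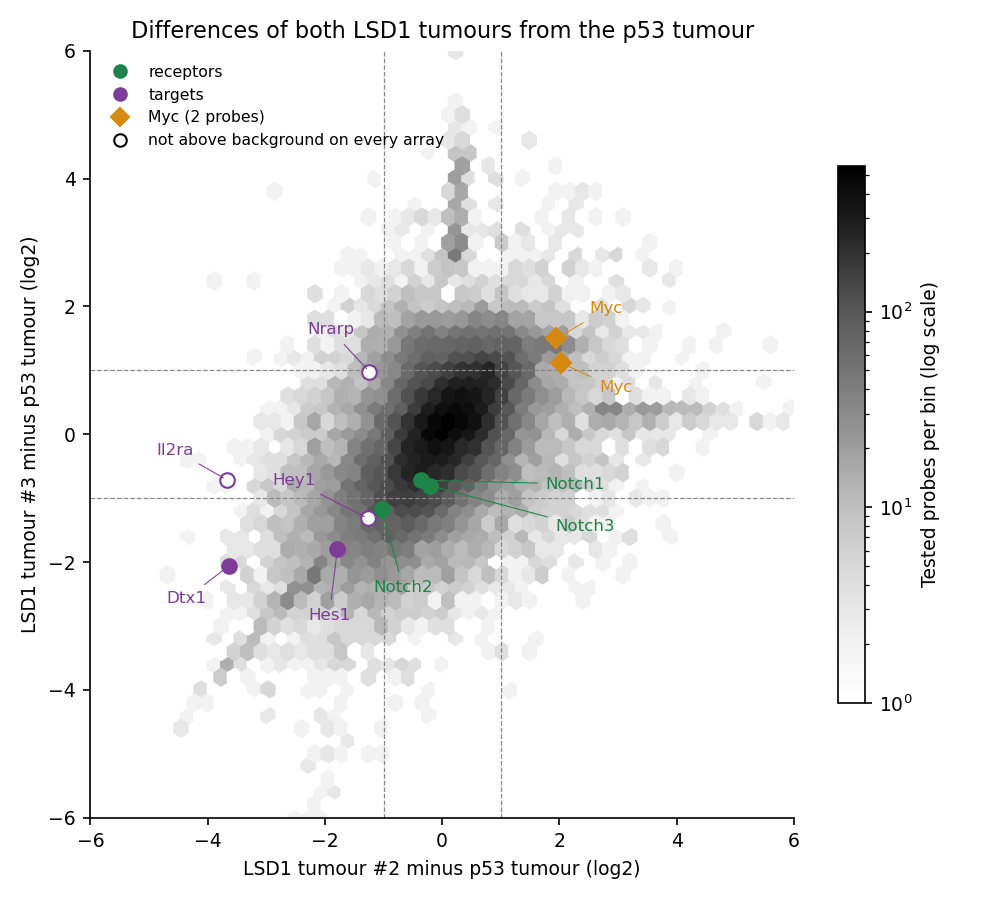
Difference of tumour #3 from the p53 tumour (vertical axis, log2) against that of tumour #2 (horizontal axis, log2) for the 10 tested probes, over all 32889 tested probes in grey. Dashed lines mark 2-fold, and open symbols were not above background on every array. Both axes share the p53 array, so the slope of the grey cloud is no measure of agreement. Dtx1, Hes1, Hey1 and Notch2 lie below 2-fold on both axes, Myc lies above, and Il2ra, Nrarp, Notch1 and Notch3 lie outside both corners.

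Seen by tumour, the set was lowest in tumour #2 for Dtx1 and Il2ra and in tumour #3 for the receptors. At least 2-fold lower than the p53 tumour were 5 of the 10 tested probes in tumour #2 (13.2% of all tested probes) and 4 in tumour #3 (15.4% of all). Counted with a dim side at its own value, 3 probes were 2-fold or more higher in tumour #3 than in tumour #2, those of Dtx1, Il2ra and Nrarp (12.6% of all tested probes), and the reverse held at 0 (12.4% of all). For Nrarp, not above background in tumour #2, that size is not reached by its bound of 1.29-fold, whereas the bound of Il2ra and the measured fold of Dtx1 reach it. For 9 of the 10 tested probes the p53 tumour lay outside the range of both LSD1 tumours, 7 with both LSD1 tumours lower and 2 with both higher. That was so for 68.8% of all tested probes, 32.2% with both lower and 36.6% with both higher.

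Of 54 other Notch pathway genes, 53 had a named probe and 49 were tested by their brightest probe. Of these 49, 3 were 2-fold or more lower in both LSD1 tumours (Dll1, Notch4 and Maml3), and 0 were at least 2-fold higher in both, beside 7.31% and 3.63% of all tested probes. With 1 probe per gene, as counted here, 820 of 15240 tested probes were lower and 531 higher by that size in both. The share on the lower side is thus near that of all probes. Below the p53 tumour in both LSD1 tumours were 21, above it in both 13, and 15 lay on opposite sides. The median log2 differences were -0.07 in tumour #2 and -0.25 in tumour #3, beside 0.02 and 0.07 over all tested probes. In the authors' value table, whose scaling lowers the median of all probes to -0.19 and -0.29, 27 were below in both and 4 above. With limma 0 of these genes passed an adjusted p of 0.05.

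Among the ligands, Dll1, which engages Notch2 on B cells of the spleen, was 2.50-fold lower in tumour #2 and 2.75-fold lower in tumour #3, with signals of 0.940, 0.376 and 0.341. Jag1 was 1.30-fold and 2.13-fold lower. Jag2 was above background in tumour #2 alone, at least 3.72-fold higher there than in the p53 tumour. Dll3 and Dll4 were not above background on any array. Among the glycosyltransferases that tune ligand choice, Lfng was 1.60-fold and 2.17-fold lower. Pofut1 and Rfng lay within 1.22-fold of the p53 tumour in both. Mfng, named after its values were seen, lay on opposite sides, 1.74-fold higher in tumour #2 and 1.92-fold lower in tumour #3.

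Of the 8 tested genes of receptor cleavage, 0 reached 2-fold in both tumours. Furin, which cuts the receptor during its export, was 1.95-fold and 1.19-fold lower, Aph1b, a gamma-secretase subunit, 1.86-fold and 1.14-fold lower, and Adam10, which makes the first cut after ligand binding, 1.25-fold and 1.75-fold higher. Among the 8 genes of endocytosis and turnover, the E3 ligases of ligand endocytosis Mib2 (1.96-fold and 2.13-fold) and Neurl1b (2.15-fold and 1.87-fold) were lower in both LSD1 tumours. Numb, an inhibitor of Notch, was 2.53-fold lower in tumour #3 and 1.01-fold lower in tumour #2.

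Rbpj, the DNA-binding partner of all Notch receptors, went the other way in tumour #2. Its brightest probe gave 0.927 in the p53 tumour, 4.21 in tumour #2 and 1.18 in tumour #3, a signal 4.54-fold and 1.27-fold higher. The other probe was 2.75-fold higher in tumour #2 and 1.39-fold lower in tumour #3, so the probes disagreed in tumour #3, where the brightest probe also turned in the authors' value table. Maml3, a Mastermind coactivator, was at least 2.92-fold and 2.95-fold lower by its brightest probe and was above background in the p53 tumour only. Tle1, a corepressor that HES proteins recruit, was 1.78-fold and 1.80-fold lower.

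Among 10 other target genes tested, Hes5, a repressor like Hes1, was lower in both, 5.45-fold in tumour #2 and 1.70-fold in tumour #3, from a signal of 1.86 in the p53 tumour. Targets that belong to the T cell programme lay on opposite sides in the LSD1 tumours. Tcf7, a transcription factor of early T cells, was 2.69-fold higher in tumour #2 and 6.95-fold lower in tumour #3, and Bcl11b, which fixes the T cell fate, was 1.62-fold higher and 5.27-fold lower. Chosen after their values were seen, Gata3 was 12.8-fold higher and 5.70-fold lower, and Il7r 4.17-fold higher and 4.68-fold lower. Hey2 and Heyl were not above background on any array.

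**Figure D3:**
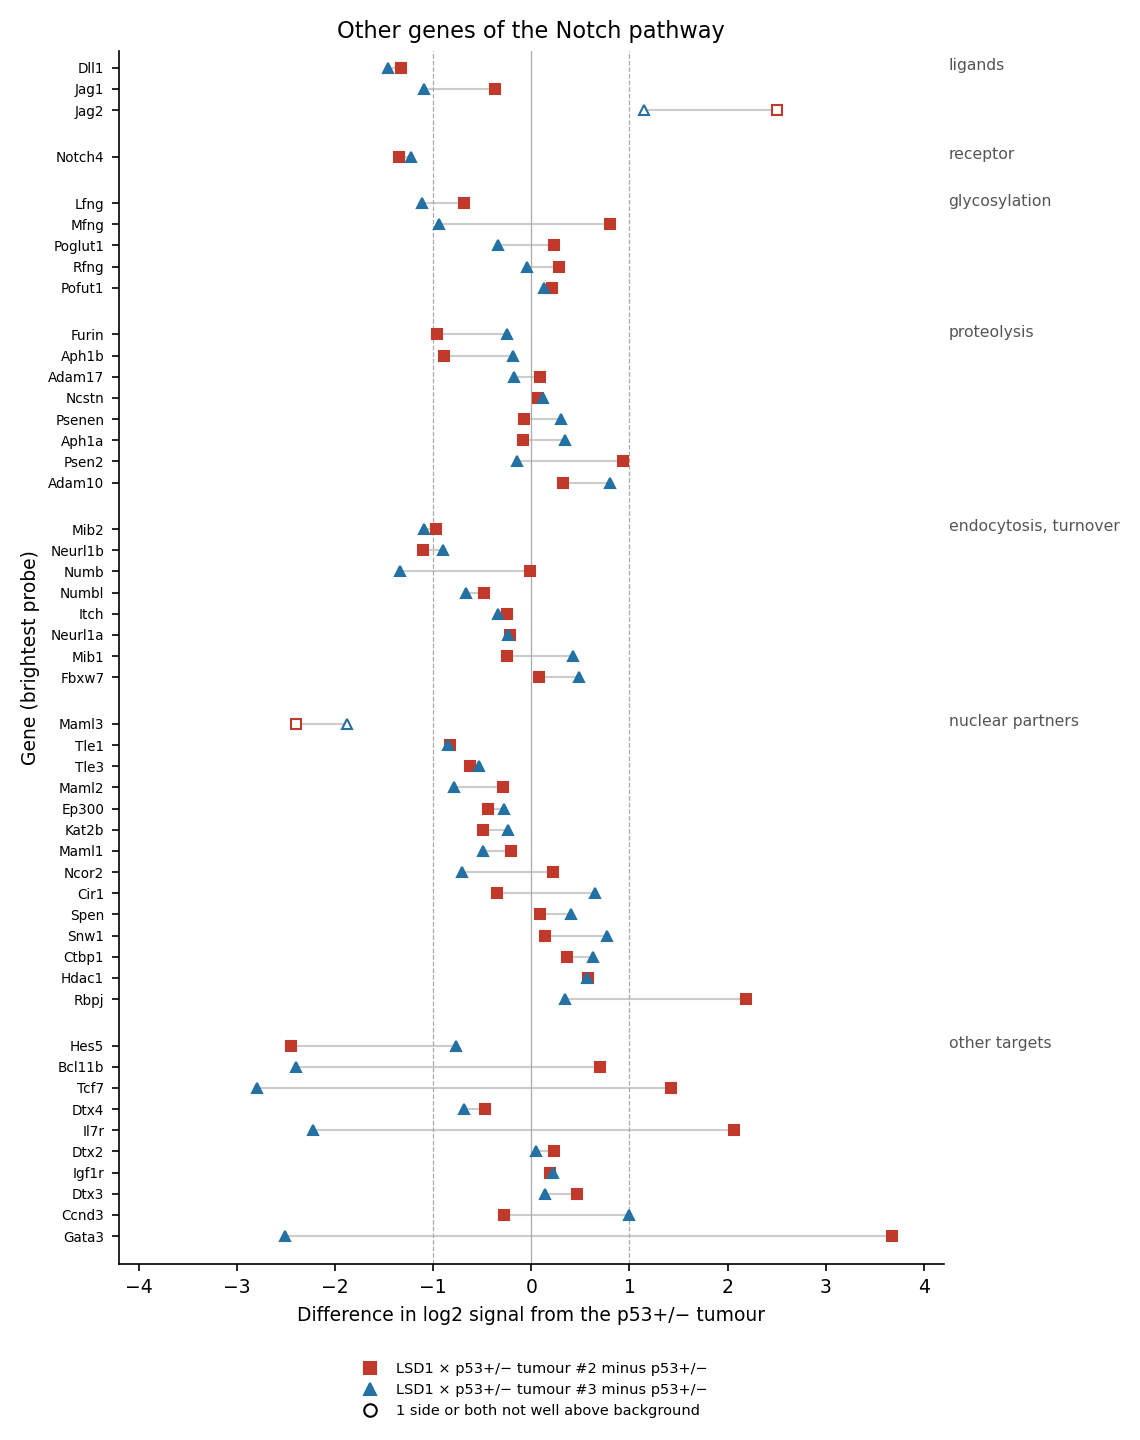
Log2 difference of tumour #2 (squares) and tumour #3 (triangles) from the p53 tumour for the 49 tested Notch pathway genes outside the set of 10, by their brightest probe and grouped by role. Dashed lines mark 2-fold and open symbols have a side not well above background. Most genes lie within 2-fold in both tumours, and Gata3, Il7r, Tcf7 and Bcl11b lie on opposite sides of 0.

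Of 11 tested genes of the Myc network, its partners, rivals and relatives, 0 were at least 2-fold higher in both LSD1 tumours (3.63% of all tested probes) and 2 were at least 2-fold lower (7.31% of all). These were the family members Mycn, 3.24-fold and 2.01-fold lower, and Mycl, at least 2.78-fold and 2.81-fold lower and above background in the p53 tumour only. With quantile normalization 1 of these calls was lost, and with normexp both. Mnt, a repressor that competes with Myc for Max, was 1.74-fold and 1.75-fold lower. The medians over the network were -0.52 and 0.29 log2.

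All 15 listed target genes of Myc were above the p53 tumour in both LSD1 tumours, and 4 were at least 2-fold higher in both, with medians of 1.19 and 1.04 log2. Over all tested probes these shares were 36.6% and 3.63%. That count was 14 in the authors' value table and with quantile normalization, Odc1 being the exception in tumour #2, and the medians were then 0.97 and 0.67, and 0.94 and 0.63. Srm, which makes spermidine, was 2.67-fold and 3.06-fold higher, Nolc1, a nucleolar protein, 2.42-fold and 2.89-fold, Shmt2, a mitochondrial enzyme of one-carbon metabolism, 2.91-fold and 2.23-fold, and the nucleolar protein nucleolin (Ncl), named after its value was seen, 2.52-fold and 2.06-fold. In tumour #3 Shmt2 and Ncl missed 2-fold with quantile normalization (0.92 and 0.54 log2) and in the authors' value table (0.79 and 0.67). Ncl also missed it there with normexp (0.99). Srm and Nolc1 stayed past 2-fold in both tumours in these settings. With limma 0 of the 26 network and target genes passed an adjusted p of 0.05. All 6 neutrophil lineage genes were above the p53 tumour in both LSD1 tumours, 4 of them by 2-fold or more (summed signal 130 in the p53 tumour, 257 and 237 in tumours #2 and #3, medians 1.30 and 1.36 log2). All 8 erythroid genes were above it in tumour #3 and below it in tumour #2 (summed signal 157, 107 and 387). All of them were above background on every array, and their part in the Myc values was not tested.

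**Figure D4:**
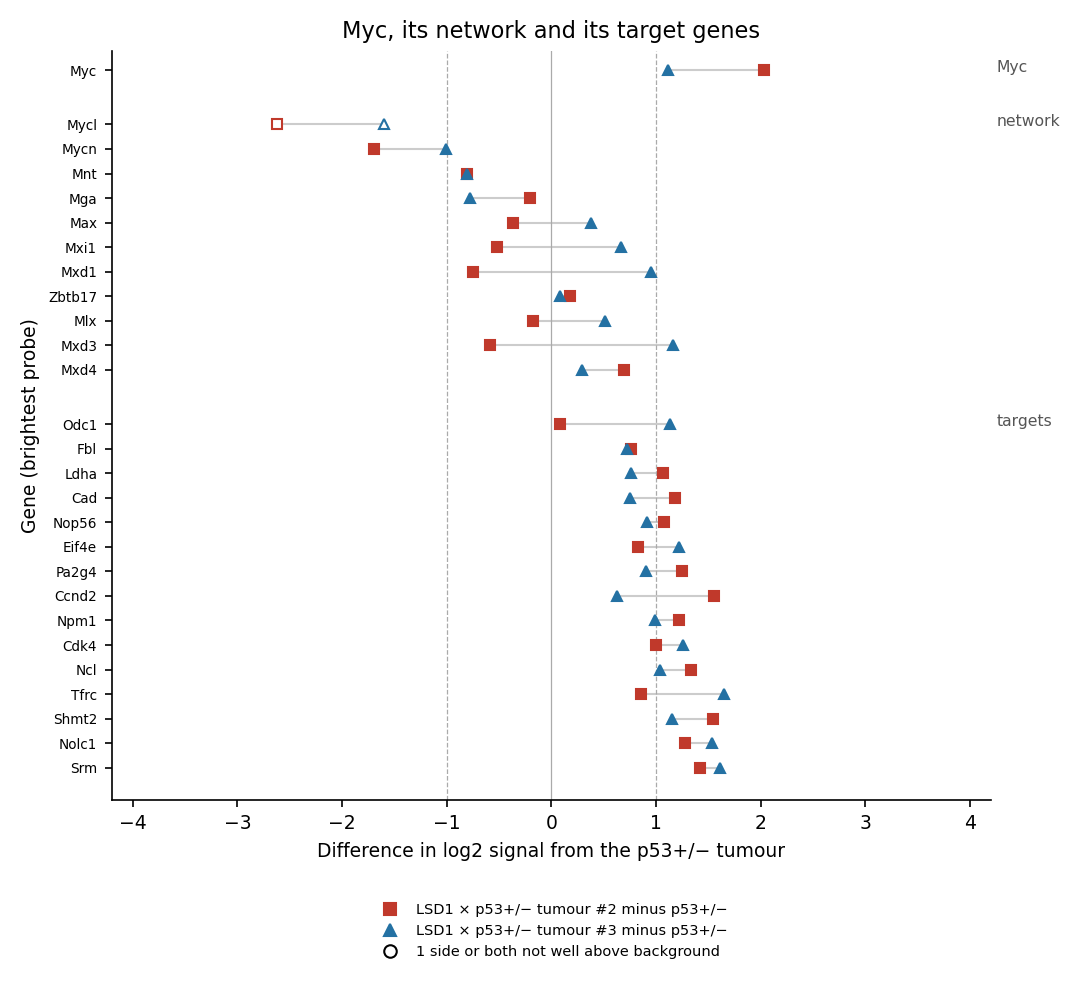
Log2 difference of tumour #2 (squares) and tumour #3 (triangles) from the p53 tumour for Myc, 11 genes of its network and 15 of its target genes, by their brightest probe. Dashed lines mark 2-fold and open symbols have a side not well above background. All 15 target genes lie above 0 in both tumours, while the network lies on both sides of 0.

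Marker lists of blood cell types were set beside the Notch genes. Over all tested probes, 32.2% lay below the p53 tumour in both LSD1 tumours and 7.31% by 2-fold or more. Of 10 B cell genes, all lay below the p53 tumour in both LSD1 tumours, 4 of them at least 2-fold, with medians of -2.49 in tumour #2 and -0.79 in tumour #3 and summed signals of 251, 41.6 and 158. All 10 were above background in each tumour except Fcer2a in tumour #3. Of 6 genes listed for marginal zone B cells, 3 were below in both, 1 above in both and 2 on opposite sides, with summed signals of 73.8, 21.2 and 36.9 and all above background. Cr2, the complement receptor of marginal zone and follicular B cells, was 19.5-fold and 163-fold lower, and Cd1d1 4.22-fold and 8.50-fold lower. Fcrl5 was above in both (0.20 and 0.07 log2), while Cd9 (0.38 and -0.13) and Mzb1 (-2.05 and 0.69) lay on opposite sides. Fcrl5 turned in tumour #3 with quantile normalization (-0.28) and in both in the authors' value table (-0.02 and -0.29). Of 8 dendritic cell genes, 6 were below in both and 4 at least 2-fold so (summed signal 13.3, 5.26 and 5.59), and Xcr1, Clec4a4 and Cd209a were not above background in the LSD1 tumours. Esam (0.32 and -0.35 log2) and Zbtb46 (-0.20 and 1.11) lay on opposite sides. The medians were -2.06 and -0.24 for the marginal zone list and -2.62 and -1.39 for the dendritic list. Dtx1 and Hes5, like the medians of these 3 lists, differed more in tumour #2 than in tumour #3, while Notch2 differed by nearly as much in each. For the dendritic list that order did not hold with normexp, where the medians were -1.20 and -1.26. Single genes of the lists also went the other way, Cr2, Cd1d1 and Fcer2a among them, which differed more in tumour #3. The part of these cells in the values of Notch2, Dtx1 and Hes5 was not tested.

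The T cell list separated the LSD1 tumours. Of 12 genes, all above background on every array, 11 were above the p53 tumour in tumour #2 and below it in tumour #3, with summed signals of 109, 295 and 55.9 and medians of 1.55 and -1.33. Cd28, a costimulatory receptor, was 8.97-fold higher and 3.20-fold lower. Notch1, Dtx1 and Il2ra did not go with it, since each was lower in tumour #2, while Tcf7, Bcl11b, Gata3 and Il7r had the signs of the list in each tumour. Of the immature thymocyte genes, Rag1, Rag2 and Arpp21 were not above background on any array by their brightest probe, like Ptcra. Of the 4 that were tested, Cd8a, Cd8b1 and Dntt were lower by 2-fold or more in both LSD1 tumours and Themis lay on opposite sides (summed signal of the 4 genes 13.8, 2.00 and 3.95). Cd8a (11.1-fold and 3.83-fold) and Cd8b1 (14.8-fold and 3.50-fold) are also genes of mature cytotoxic T cells. Of 7 genes of regulatory and activated T cells, 5 were below in both (3 with normexp) and 2 on opposite sides (summed signal 11.1, 9.75 and 5.33). Il2rb, which pairs with Il2ra and was named after its value was seen, was 1.30-fold and 2.56-fold lower. It differed more in tumour #3, whereas Il2ra differed more in tumour #2. Foxp3 and Ikzf4 were not above background in tumour #3, nor Ctla4 in tumour #2 and the p53 tumour. The part of these cells in the values of Notch1, Dtx1 and Il2ra was not tested.

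Notch3, Notch4, Hey1 and Jag1 are also known to act in vessels and stroma. Of 8 endothelial genes, 5 were below the p53 tumour in both LSD1 tumours and 2 above in both, with medians of -0.47 and -0.17 and summed signals of 24.0, 15.4 and 26.7, all above background. Kdr, a receptor for vascular endothelial growth factor, was 2.56-fold and 1.49-fold lower and the junction gene Cldn5 2.44-fold and 1.09-fold lower, while Emcn, which encodes endomucin, was 2.51-fold and 1.92-fold higher. Of 9 stromal and pericyte genes, 4 were below in both (up to 7 in the authors' value table) and 5 on opposite sides, with medians of -0.14 and -0.53 and summed signals of 27.4, 24.9 and 20.1. The matrix gene Dcn was the 1 gene of that list past 2-fold in both, lower by 3.82-fold and 3.73-fold. Rgs5, a pericyte gene, was at least 14.9-fold higher in tumour #2 and not above background elsewhere, and Cspg4 was not above background in either LSD1 tumour. Their part in the values of Hey1 and Notch3 was not tested.

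**Figure D5:**
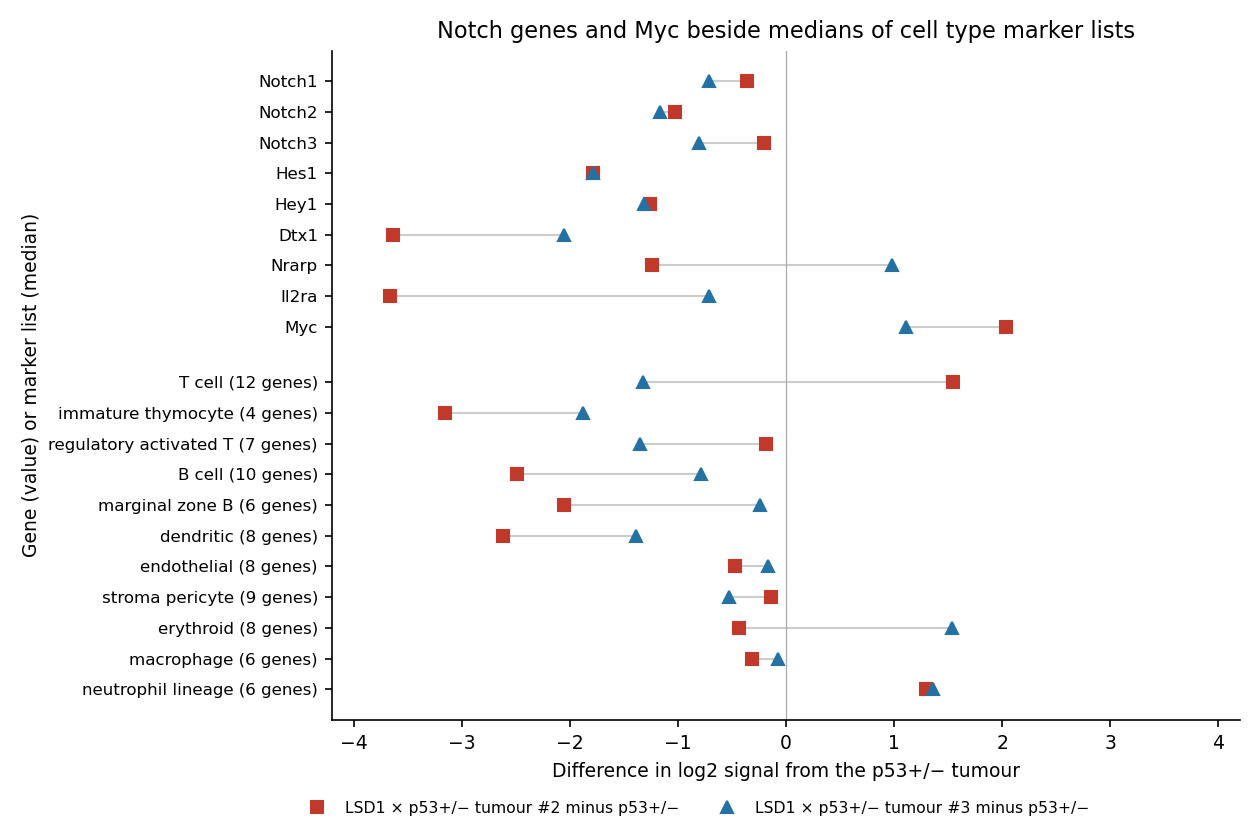
Log2 difference of tumour #2 (squares) and tumour #3 (triangles) from the p53 tumour for 9 tested genes of the set, above, and the median over each marker list, below, with the number of tested genes. Genes are shown by their brightest probe, and values of Hey1, Il2ra and Nrarp include signals at the background level. So do some values behind the medians of the B cell, dendritic, regulatory and activated T cell, stromal and macrophage lists. The T cell and erythroid lists lie on opposite sides of 0, the neutrophil lineage list lies above 0 in both tumours, and all other lists lie below 0 in both.

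The genes whose pair of differences lay nearest were sought for Dtx1, Hes1 and Myc among 12811 genes above background on all 3 arrays. Likeness was the Euclidean distance between the log2 differences of both LSD1 tumours from the p53 tumour, a measure over 3 arrays in which both differences share 1 array. Nearest to Dtx1 were B3gnt5, a glycosyltransferase (distance 0.19, log2 differences -3.46 and -2.03), Cd8a, the CD8 alpha chain (0.21, -3.47 and -1.94), and Gm35933 (0.30, -3.93 and -2.14), and 2 genes lay within 0.25. Around Hes1 30 genes lay within 0.25, nearest Krtcap3 (0.04), E030024N20Rik (0.09) and the transcription factor gene Nfatc1 (0.09). Around Myc there were 22, nearest Lysmd2 (0.06), Snora78 (0.08) and Plekha8 (0.08).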

How the data were processed

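The authors extracted the scans with Agilent Feature Extraction 11.5.1.1, per the submitters' processing notes and the file headers. Values are the deposited processed signal, an intensity on a linear scale from which the software had subtracted background within each array, per the file headers, and which was not scaled between arrays. Spot and local background intensities and the flags for background, saturation and outliers came from the same deposited files. The authors' value table holds the processed signal multiplied by 1 factor per array (1.06, 0.779 and 0.902 for the p53 tumour and tumours #2 and #3), as found by setting it against the scans. What those factors were set on is not given in the sources used here, and the medians of its columns were 64.2, 54.2 and 43.5.

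Outlier spots were left out, spots of 1 probe were averaged, and signals were divided by the array's 75th percentile (608, 712 and 554) and taken as log2. Probe accessions in the array files were turned into gene names through RefSeq's table of genes (GRCm38.p6), taken for names alone (32994 probes named, 23611 unnamed). Probe coordinates are left out, since the array was built on mm9. Genotypes were compared with limma 3.58.1 in R 4.3.3 (lmFit, eBayes, Benjamini-Hochberg adjustment over 32889 probes, threshold 0.05), with 1 residual degree of freedom. Size calls needed both LSD1 tumours to lie at least 2-fold from the p53 tumour on the same side, with the brighter side above background. No set test was run, and lists are given by counts and medians beside those of all probes. The steps were tested on simulated data. A listed item that is withheld is not reported here.

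The members, the lists, the tests and the rule for named genes were chosen with earlier results of these data known. That rule took every probe of the 10 genes, up to 3 genes of each other list by the largest absolute mean difference of the brightest probe, and the 3 nearest genes for Dtx1, Hes1 and Myc. Genes outside it were named after their values were seen, and ligands and genes not above background are named to account for a list. Alternatives were normexp with an offset of 50, quantile normalization, the authors' value table, other filters on dim probes, 1 probe per gene, the slide as a block and leaving out each LSD1 tumour.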

Additional observations from a re-analysis of the deposited data

How the results depend on the processing

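With limma 0 probes passed in each of the 7 settings fitted, the lowest adjusted p being 0.865 with normexp, 0.895 with quantile normalization, 0.857 in the authors' value table, 0.466 with no filter, 0.306 with probes above background on all 3 arrays and 0.967 with 1 probe per gene, against 0.892. The direction of each LSD1 tumour against the p53 tumour held with normexp, quantile normalization and the authors' value table for the 9 tested probes other than that of Nrarp. Settings that change only which probes are kept cannot move a probe's own direction, and some of these probes drop out of them. The Nrarp probe was at background in the p53 tumour and tumour #2 and has no direction there. Its mean difference, which rests on those values, turned from -0.13 to 0.00638 with normexp, 0.0322 with quantile normalization and 0.98 with the slide as a block or without tumour #2 (-1.24 to 0.98 on leaving out either, the first between signals at background). Leaving out either tumour, or taking the slide as a block, leaves 1 array against 1 and a value with no test.

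Probes at least 2-fold higher in both LSD1 tumours numbered 1195, with 669 under normexp, 486 in the authors' value table, 531 with 1 probe per gene, 4629 with the slide as a block and 3899 to 4629 without either tumour. Those lower numbered 2404, with 955, 3641, 820, 5049 and 4336 to 5049 in the same order, and 1022 above background on all 3 arrays. Their higher share was 33.2%, and 41.2% under normexp, 30.3% under quantile normalization, 11.8% in the authors' value table, 49.2% above background on all 3 arrays and 39.3% with 1 probe per gene. Between the LSD1 tumours, 4084 probes higher in tumour 2 became 1950 (normexp), 2023 (all 3 arrays) and 1692 (1 probe per gene), and 4154 higher in tumour 3 became 2581, 2609 and 2140.

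Of the 10 genes, 2 probes higher in both became 1 with normexp, quantile normalization, the authors' value table and 1 probe per gene, and 4 lower became 2 with normexp (Notch2 and Dtx1). Notch pathway probes lower in both numbered 4, with 1 (normexp), 11 (authors' value table), 2 (all 3 arrays), 14 (slide as a block) and 8 to 14 without either tumour. Those higher numbered 0, with 1 (slide as a block) and 1 to 9. Myc network and target probes higher in both numbered 8, with 5 (quantile normalization), 5 (authors' value table), 4 (1 probe per gene) and 19 (slide as a block, and without either tumour). Those lower numbered 2, with 0 (normexp), 1 (quantile normalization) and 1 (all 3 arrays). Cell type probes higher in both numbered 4, with 19 (slide as a block) and 19 to 26 without either tumour. Those lower numbered 23, with 14 (1 probe per gene), 46 (slide as a block) and 42 to 46. The core TGGGAA stood in 1 promoter of the set and GTGGGAA in 0. Counts with fewer probes, 1 probe per gene or 1 tumour differ by construction. For the others the cause was not tested. No paired analysis was possible because the genotypes share no replicate number.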

Other observations

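Macrophage genes, which stood beside no Notch gene above, had summed signals of 119 in the p53 tumour, 83.0 in tumour #2 and 175 in tumour #3. Of the 6 genes, 3 were below the p53 tumour in both LSD1 tumours and 3 lay on opposite sides. The medians were -0.32 and -0.08 log2, so most of the list did not share the higher sum in tumour #3. There 2 genes lay above the p53 tumour, Cd5l (1.60 log2) and Cd68 (0.34, but -0.08 after quantile normalization). Siglec1, a macrophage lectin, was 1.49-fold higher in tumour #2 and at least 8.96-fold lower in tumour #3, where it was not above background. Adgre1, which encodes F4/80, was 3.04-fold and 1.06-fold lower. Among neutrophil lineage genes the granule proteases Ctsg (3.74-fold and 5.30-fold) and Prtn3 (2.65-fold and 3.92-fold) were higher in both LSD1 tumours. With limma 0 of these genes passed an adjusted p of 0.05, and 1491 of all 32889 probes had an unadjusted p under 0.05.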
